A study of Mus musculus with 12 samples.

Results

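Chromatin accessibility was examined at the genes that bring iron into the cell, carry it in plasma, store it and release it: Tfrc, Tfr2, Slc11a2, Steap4, Trf, Fth1, Ftl1, Slc40a1 and Cp. Their peaks were all those whose nearest gene, as assigned by the authors, was one of these 9, namely 38 of 58558 peaks in brown fat (BAT) and 28 of 39558 peaks in inguinal fat (iWAT). The 9 genes were chosen by their differences between genotypes in these same data, so every AKO against flox value given for them is a description and carries no test. ATAC-seq, which counts transposase insertions in open DNA, was performed on nuclei of whole adipose tissue from C57BL/6 mice, with 3 flox and 3 AKO samples for each depot. Flox mice carried floxed BAF60a alleles (gene symbol Smarcd1, which encodes part of the SWI/SNF machinery that moves nucleosomes) on both chromosomes and no Cre. AKO mice carried the same floxed alleles with Adiponectin-Cre, which acts in adipocytes, so that vessels, immune cells and fibroblasts of the same tissue kept BAF60a. Each BAT sample was 1 mouse. The iWAT samples came from cold-acclimated mice whose pads were pooled by genotype, and the 3 samples of a genotype are aliquots of 1 pool, so their spread is technical and says nothing about differences between animals. Age was not given in the labels.

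Cells take up iron bound to transferrin (Trf) through the transferrin receptor (Tfrc), and its relative Tfr2 senses transferrin-bound iron in the liver and in red cell precursors. Iron released in endosomes is reduced by ferrireductases, among them Steap4, and crosses the membrane through the divalent metal transporter Slc11a2. Ferritin, built of heavy (Fth1) and light (Ftl1) chains, stores iron in the cytosol, and ferroportin (Slc40a1) exports it, helped by the ferroxidase ceruloplasmin (Cp). Thermogenic fat is rich in mitochondria and draws iron for heme and iron-sulfur clusters. Much of the control of Tfrc and the ferritin chains acts on their mRNA through iron-responsive elements, which accessibility does not measure.

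The 3 peaks on which the description turns are shown first, with the upstream Fth1 peak closest to the start site, shown for its antioxidant response elements, each as the 300 bases at the middle of its BAT peak, 5′ to 3′ on the strand of the gene, from the mm10 (GRCm38) reference. Capitals mark matches to the motifs searched. The Tfr2 window lay at chr5:137580065-137580364 on the plus strand and covered exon 12 and parts of the introns on each side. The Slc40a1 window lay at chr1:45905278-45905577 on the minus strand, beyond the 3′ end of the gene. The Fth1 windows lay upstream of the gene on the plus strand, at chr19:9954553-9954852 and chr19:9978496-9978795.
Tfr2, exon 12 peak: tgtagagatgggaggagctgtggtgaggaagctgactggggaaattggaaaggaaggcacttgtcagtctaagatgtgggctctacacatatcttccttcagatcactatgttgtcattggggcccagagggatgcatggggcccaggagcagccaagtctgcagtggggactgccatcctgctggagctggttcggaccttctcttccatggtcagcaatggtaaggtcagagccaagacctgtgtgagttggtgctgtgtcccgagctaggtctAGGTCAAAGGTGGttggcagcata
Slc40a1, 3′ peak: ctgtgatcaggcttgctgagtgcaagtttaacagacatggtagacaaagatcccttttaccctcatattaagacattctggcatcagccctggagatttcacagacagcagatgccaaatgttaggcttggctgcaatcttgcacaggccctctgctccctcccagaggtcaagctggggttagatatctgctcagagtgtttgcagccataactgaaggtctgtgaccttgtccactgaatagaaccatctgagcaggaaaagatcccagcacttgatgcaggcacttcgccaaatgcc
Fth1, far upstream peak: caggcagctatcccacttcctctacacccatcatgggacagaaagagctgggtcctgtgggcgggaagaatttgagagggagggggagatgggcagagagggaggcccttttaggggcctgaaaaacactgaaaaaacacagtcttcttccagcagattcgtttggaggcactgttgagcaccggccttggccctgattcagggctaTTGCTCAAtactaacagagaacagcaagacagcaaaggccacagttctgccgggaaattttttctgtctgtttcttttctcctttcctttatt
Fth1, near upstream peak: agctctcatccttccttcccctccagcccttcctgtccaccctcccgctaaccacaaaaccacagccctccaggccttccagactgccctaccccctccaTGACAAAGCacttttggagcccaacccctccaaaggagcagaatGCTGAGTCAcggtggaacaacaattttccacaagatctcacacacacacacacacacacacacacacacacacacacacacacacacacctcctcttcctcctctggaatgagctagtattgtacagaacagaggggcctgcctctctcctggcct
The Tfr2 window held AGGTCAAAGGTGG, which starts at base 277 of the window and matches the PPAR response element AGGTCANAGGTCA with 2 mismatches allowed. It stood near the edge of the window, and the 300 bases centred on the slightly narrower iWAT peak, which end a few bases earlier, did not contain it whole. The far upstream Fth1 window held TTGCTCAA at base 208, a match to the C/EBP motif TTGCGCAA with 1 mismatch allowed. The near upstream Fth1 window held 2 antioxidant response elements (TGACNNNGC, no mismatch), at base 101 and, on the other strand, at base 145. The Slc40a1 window held none of the 6 motifs searched, which says only that these letters are not in those 300 bases.

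Each motif was searched on both strands in the 300 middle bases of every peak. The PPAR response element matched 4 of the 38 BAT windows of the iron genes (at Cp, Steap4, Tfr2 and Tfrc), against 6.41% of all BAT windows, and 2 of the 28 iWAT windows (Steap4 and Trf), against 5.16%. C/EBP matched 8 BAT and 7 iWAT windows, against 7.18% and 7.35% of all windows. It was the motif found at the most iron genes, 6 of the 9 in BAT and 7 in iWAT. No share over all genes was computed beside these counts, and the motifs differ in the mismatches allowed. Most iWAT peaks of these genes overlap a BAT peak, so the 2 counts are not independent. Antioxidant response elements, the sites of the oxidative stress factor NRF2, matched 5 BAT windows (Fth1, Ftl1, Slc11a2 and Tfrc) and 4 iWAT windows, against 14% and 14.9%. The hypoxia response element core ACGTG matched 4 BAT and 6 iWAT windows, against 17.3% and 18.2%. The EBF motif TCCCNNGGGA without mismatch and the NF1 motif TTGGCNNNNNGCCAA with 1 mismatch matched none of the iron gene windows, and they were rare in general, at 2.4% and 1.93% of BAT and 1.69% and 1.48% of iWAT windows. RefSeq promoter windows, 250 bases before to 50 after a start site, were at hand for Cp, Steap4, Tfr2, Ftl1, Tfrc and Fth1, 11 windows in all, and not for Trf, Slc40a1 and Slc11a2. Of these 11, 4 held C/EBP (5.92% of all 32815 promoter windows), 4 held ACGTG, all at Tfr2 or Tfrc (19.6%), and none held the other motifs. A match is a match of letters and not an observed binding site.

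Reads in peaks per sample ranged from 6336670 to 27500738 in BAT and from 4066720 to 6691161 in iWAT. The targeted gene was checked in the BAT peak inside Smarcd1, which held 136, 201 and 185 normalized reads in flox and 23.7, 57.9 and 26.9 in AKO samples. DESeq2 called this peak lower in AKO (adjusted p 4.0e-11), while limma did not call it (adjusted p 0.27). The Smarcd1 promoter peak overlapped between genotypes in both depots, and iWAT listed no internal peak. The first principal component of BAT took 55.6% of the variance, with AKO replicate 2, the shallowest BAT library, at one end and flox replicate 1, the deepest, at the other. Its scores were -98.2, -41.8 and 14.6 in flox and -0.617, 112.5 and 13.5 in AKO, so it was partly shared with genotype. The fitted values in BAT take this component into account, which can remove part of the genotype difference. All 7 adipocyte markers and all 6 brown or beige markers had peaks in both depots. In BAT, normalized reads summed over the 72 peaks of the brown or beige markers were 20060 to 23830 in flox and 13760 to 14890 in AKO. The sum over the adipocyte markers was 19330 to 21890 in flox and 13560 to 19040 in AKO. In iWAT the adipocyte sum was 3179 to 3919 in flox and 3112 to 3494 in AKO, and the brown or beige sum was 1379 to 1544 in flox and 1449 to 1594 in AKO. The part of these shifts in the iron gene values was not tested, and in whole tissue fewer cells of a type and less signal per cell cannot be told apart.

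Taken over all 9 genes, the peaks were centered close to the rest of each table. The median fitted log2 fold change of AKO over flox was 0.009 over the 38 BAT peaks and 0.007 over all BAT peaks, and 0.006 over the 28 iWAT peaks and -0.001 over all iWAT peaks. No iron gene peak passed an adjusted p of 0.1 with limma in either depot, and neither did any other peak (0.0% of all peaks in each direction and depot). At an unadjusted p under 0.05, limma put 4 BAT peaks lower in AKO (2 at Tfr2, 2 at Slc40a1) and 1 higher (Trf), against 5.59% and 3.46% of all BAT peaks. In iWAT it put 2 lower (Tfr2, Fth1) and 1 higher (Cp), against 7.42% and 7.61%. DESeq2 on the recovered reads called no iron gene peak in BAT, where it called 0.217% of all peaks lower and 0.0803% higher. In iWAT it called 2 lower (Tfr2, Fth1) and none higher, against 0.569% and 0.493% of all peaks. With edgeR the count was again 0 in BAT (0.114% of all peaks lower, 0.029% higher), and in iWAT 2 lower and 1 higher, the Cp peak (2.52% and 2.15%). Every AKO sample lay below every flox sample at 4 BAT peaks (2 of Slc40a1, 1 each of Fth1 and Cp) and above at 1 (Trf), against 8.84% and 8.77% of all BAT peaks. The same held at 3 iWAT peaks (Tfr2, Fth1, Ftl1) and, above, at 2 (Cp, Tfrc), against 10.3% and 10.6%. Since the genes were chosen on this contrast, nothing is read from these counts.

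**Figure D1:**
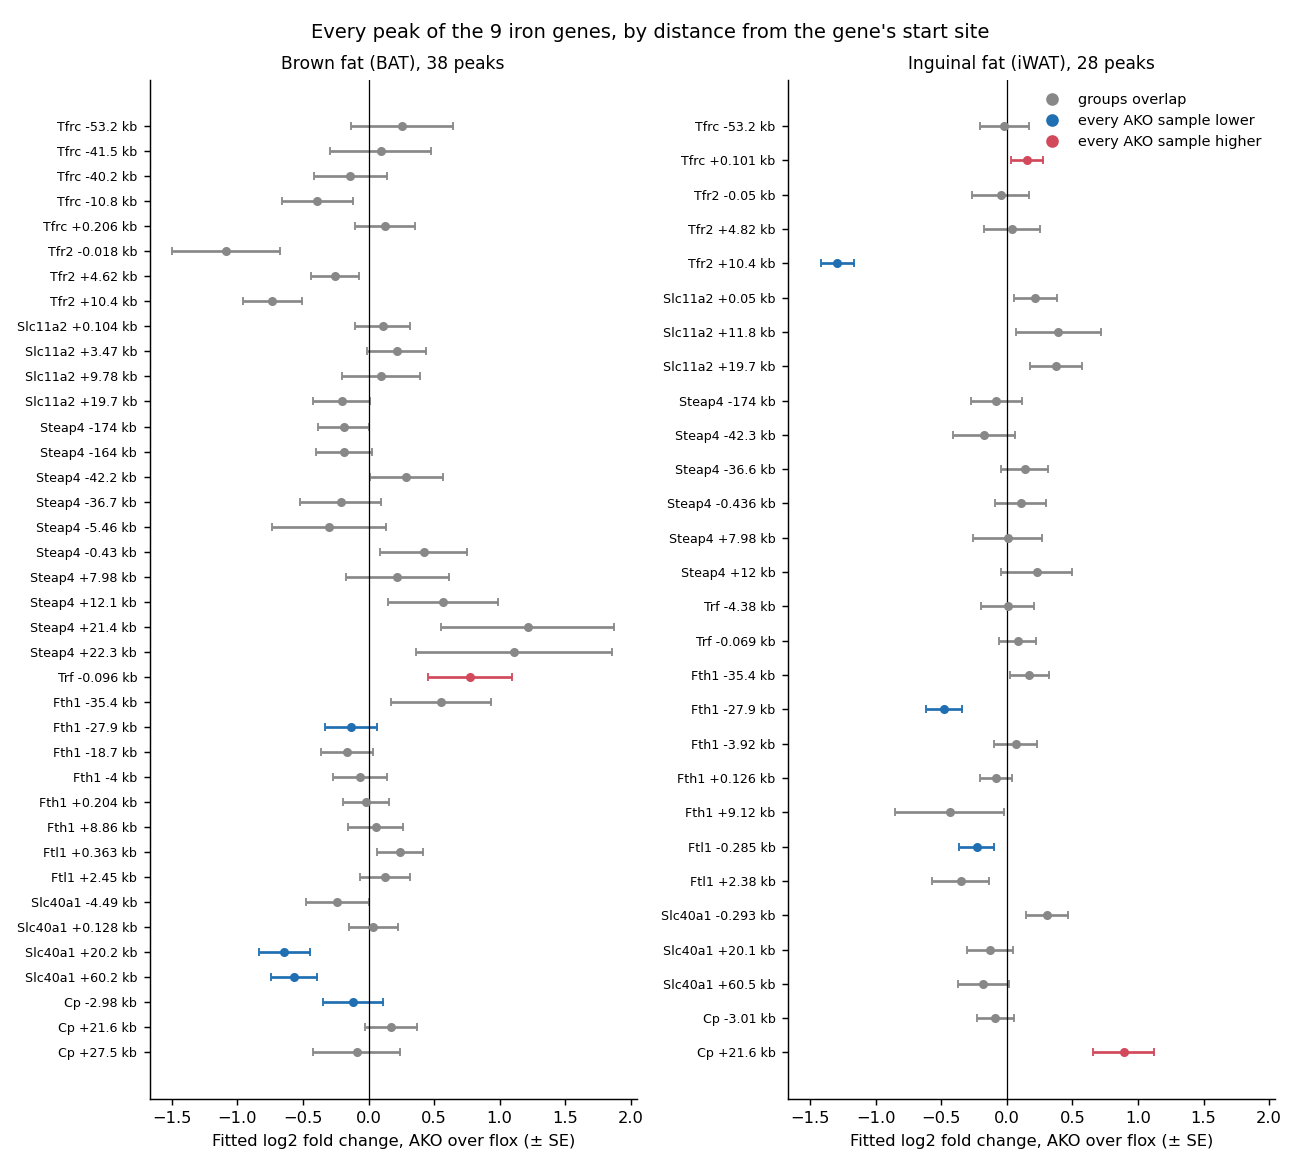
Fitted log2 fold change of AKO over flox (x axis, ± SE) at each of the 38 BAT and 28 iWAT peaks, named by gene and by distance from its start site in kb, with blue and red for peaks where every AKO sample was lower or higher than every flox sample. Most intervals reach close to or across 0, and the points farthest to the left are the exon 12 peak of Tfr2 in iWAT at -1.29 and the start-site peak of Tfr2 in BAT at -1.09.

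Tfrc, the receptor through which most cells take up transferrin iron, had 5 BAT and 2 iWAT peaks. The start-site peak (exon 1 and intron 1) held 831, 895 and 865 normalized reads in BAT flox and 880, 620 and 977 in AKO samples. The genotypes overlapped, with AKO replicate 2 the lowest and AKO replicate 3 the highest of the 6, and the fitted log2 fold change was 0.13 ± 0.23 (SE). In iWAT the same peak held 215, 214 and 205 in flox and 235, 246 and 224 in AKO aliquots, which did not overlap although the fitted difference was 0.15 ± 0.12. The other Tfrc peaks lay upstream, and the one 10.8 kb from the start had the smallest p among the BAT peaks, at 65.3, 87.9 and 148 in flox and 104, 118 and 88.3 in AKO, with overlapping groups and a log2 fold change of -0.39 ± 0.27. A peak 53.2 kb upstream was listed in both depots and overlapped between genotypes in each, at 0.26 ± 0.39 in BAT and -0.02 ± 0.19 in iWAT. In flox BAT the Tfrc start-site peak was among the most open of all, at 855 ± 31.5 normalized reads per kb (SD, n = 3), percentile 96.4 of BAT peaks, and it stood at percentile 83.8 in iWAT.

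Tfr2, the transferrin receptor known for iron sensing, had 3 peaks in each depot, all of them in both. The peak 10.4 kb into the gene, over exon 12 and the introns on each side, held 99.1, 99.0 and 105 normalized reads in the iWAT flox aliquots and 39.2, 43.4 and 39.6 in the AKO aliquots. The AKO aliquots were all below the flox aliquots, with means of 40.7 ± 2.32 and 101 ± 3.46 (SD, n = 3). The fitted log2 fold change was -1.29 ± 0.12, the lowest of the iron gene peaks in either depot. Behind it were 139, 89 and 122 recovered reads in flox and 34, 38 and 37 in AKO. In BAT the same peak held 138, 209 and 238 in flox and 136, 155 and 141 in AKO. Flox replicate 1 lay among the AKO samples, so the genotypes overlapped, and the log2 ratio of the means was -0.44 against a fitted value of -0.73 ± 0.22.

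The other Tfr2 peaks did not follow the exon 12 peak in iWAT. At the start site the iWAT aliquots held 53.5, 51.1 and 45.6 in flox and 39.2, 67.4 and 42.8 in AKO, and at the peak 4.82 kb into the gene 19.96, 28.9 and 18.1 in flox and 18.4, 26.3 and 23.5 in AKO. The groups overlapped at both, with fitted values of -0.05 ± 0.22 and 0.04 ± 0.22. In BAT the start-site peak held 73.7, 111 and 68.6 in flox and 32.0, 85.0 and 51.8 in AKO, where AKO replicate 2 lay within the flox range. Its fitted value was -1.09 ± 0.41 against a log2 ratio of the means of -0.59, on as few as 31 reads in AKO replicate 1. The peak 4.62 kb into the gene changed sign with the model: its AKO mean of 129 ± 46.6 (SD, n = 3) exceeded the flox mean of 91.6 ± 37.0, a log2 ratio of 0.49, while the fitted value was -0.26 ± 0.18. Markers of the cells known to express Tfr2 were read beside it. Of 7 erythroid markers 3 had peaks in iWAT, none at Gata1, Alas2, Hba-a1 or Slc4a1, and their 6 peaks summed to 385 to 426 in flox and 328 to 378 in AKO. In BAT 4 of the 7 had peaks, with sums of 500 to 569 in flox and 596 to 742 in AKO. Of 4 hepatocyte markers 3 had peaks in iWAT (none at Alb), at 590 to 605 in flox and 538 to 594 in AKO. Gata1 and Alas2 are X-linked and the tables hold autosomes only. Whether these cell types have a part in the Tfr2 values was not tested.

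**Figure D2:**
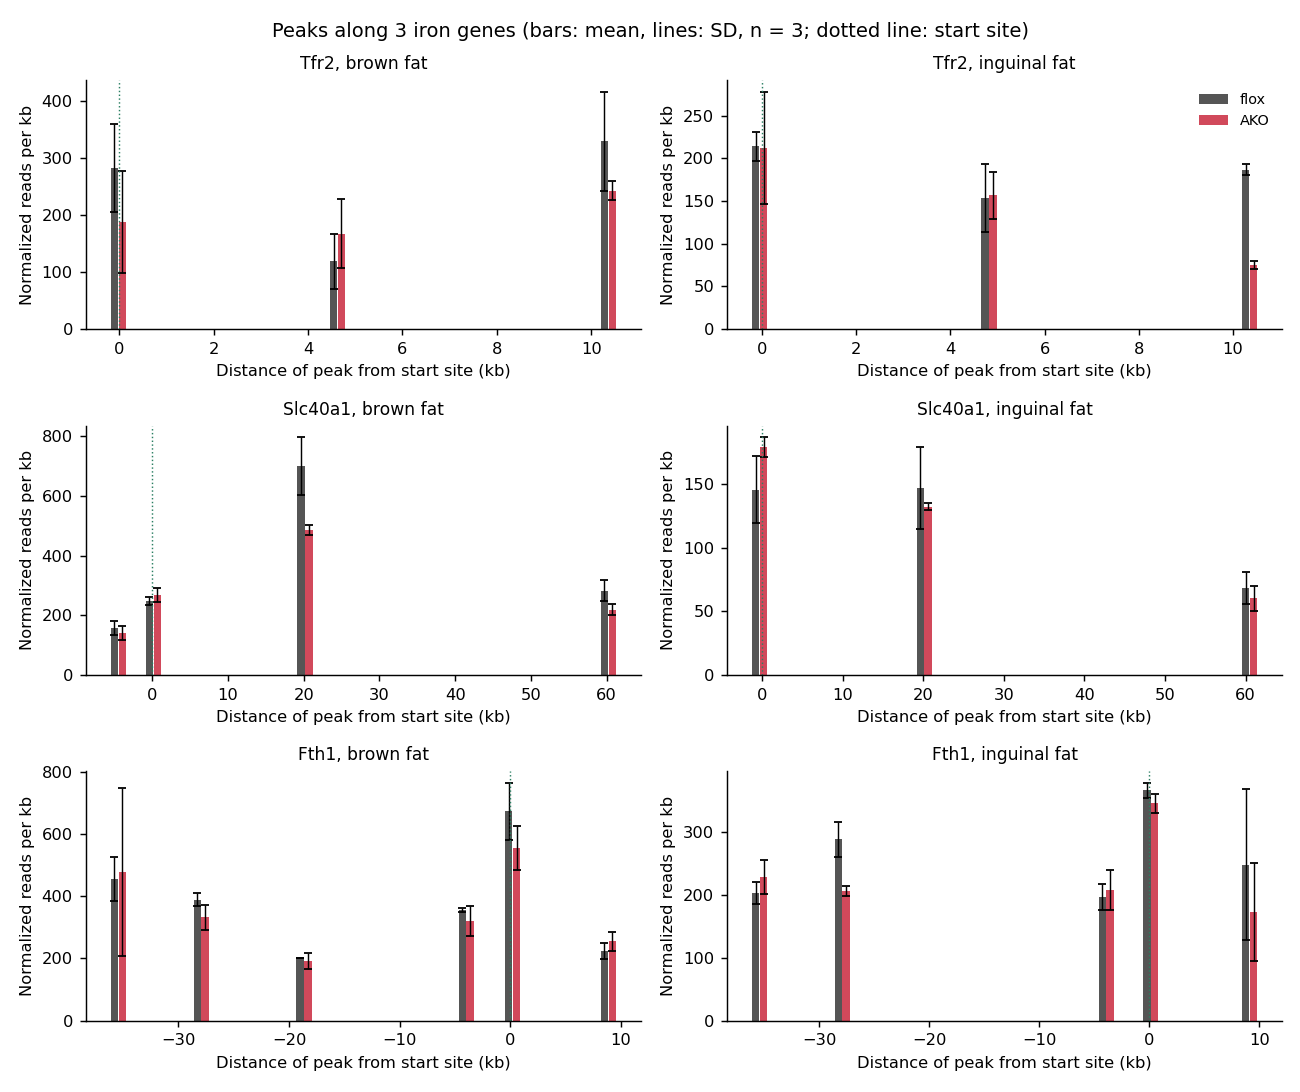
Normalized reads per kb of peak (y axis; bars are means and lines SD of 3 samples, gray flox and red AKO) against distance of the peak from the start site in kb along Tfr2, Slc40a1 and Fth1 in BAT (left) and iWAT (right), with a y scale of its own in each panel. In iWAT the AKO bar of Tfr2 is short at 10.4 kb alone, and in BAT the Slc40a1 bars differ at 20.2 and 60.2 kb while those at the start site overlap within their SD.

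Slc11a2, which moves ferrous iron out of endosomes, had 4 BAT and 3 iWAT peaks, and no single peak separated the genotypes. Its start-site peak held 588, 491 and 468 in BAT flox and 448, 452 and 585 in AKO samples, and 297, 257 and 277 in iWAT flox and 311, 385 and 278 in AKO aliquots. The fitted values were 0.11 ± 0.21 in BAT and 0.22 ± 0.16 in iWAT. The middle of this peak also lies in exon 1 of the gene model Gm5475. The peak with the smallest p in both depots lay 19.7 kb into the gene around exon 10, at 429, 354 and 357 in BAT flox and 293, 373 and 340 in AKO, and at 64.2, 86.7 and 66.3 in iWAT flox and 73.8, 101 and 109 in AKO. The fitted values pointed opposite ways, -0.20 ± 0.22 in BAT and 0.37 ± 0.20 in iWAT, and the groups overlapped in each depot. The third iWAT peak, in intron 2, was small, at 17.1, 17.8 and 17.2 in flox and 38.0, 13.7 and 23.5 in AKO. Summed over its 3 iWAT peaks Slc11a2 held 378, 361 and 361 in flox and 423, 499 and 411 in AKO, so the sums separated where no single peak did.

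Steap4, a metalloreductase, had the most peaks of the 9 genes, 10 in BAT and 6 in iWAT, from 174 kb upstream to 22.3 kb beyond the start, and the genotypes overlapped at every one. Its start-site peak held 636, 415 and 510 in BAT flox and 813, 408 and 441 in AKO samples, where AKO replicate 1 was above all flox samples and the other two AKO samples below the flox mean of 520. The fitted value was 0.42 ± 0.33 in BAT, and in iWAT the same peak held 150, 105 and 164 in flox and 161, 143 and 140 in AKO (0.11 ± 0.19). The pattern was shared along the locus. AKO replicate 1 was the highest AKO sample at 8 of the 10 BAT peaks, and flox replicate 1 the highest flox sample at 6. The largest fitted value of any iron gene peak, 1.21 ± 0.66, was at the last exon of Steap4 in BAT, where flox held 23.5, 7.39 and 27.2 and AKO 53.6, 21.3 and 28.8 normalized reads. It rested on as few as 10 reads in flox replicate 2 and 11 in AKO replicate 2. The iWAT peak with the smallest p, 12 kb into the gene, held 74.1, 60.0 and 42.2 in flox and 92.2, 61.7 and 53.5 in AKO, with overlapping groups (0.23 ± 0.27).

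Trf, which encodes plasma transferrin and is read mainly in liver, had 1 peak in BAT and 2 in iWAT. The BAT peak, on the start site, held 39.7, 70.2 and 54.3 in flox and 84.5, 96.6 and 126 in AKO samples. All AKO samples were above all flox samples, with a fitted log2 fold change of 0.77 ± 0.32. It was the least open of the 8 start-site peaks in flox BAT, at percentile 3.5 of all BAT peaks by reads per kb. In iWAT the start-site peak stood at percentile 71.1 and held 170, 156 and 172 in flox and 196, 160 and 172 in AKO, which overlapped (0.08 ± 0.14). The second iWAT peak, 4.38 kb upstream, held 62.7, 46.7 and 54.2 in flox and 68.0, 43.4 and 54.5 in AKO, with no separation (0.01 ± 0.20). The start of another gene model, Gm20425, lies 233 bases from the middle of the BAT peak. Hepatocyte markers overlapped between genotypes in BAT, where 2 of 4 had peaks, none at Ttr or Serpina1a, with sums of 1845 to 2040 in flox and 1757 to 1962 in AKO.

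**Figure D3:**
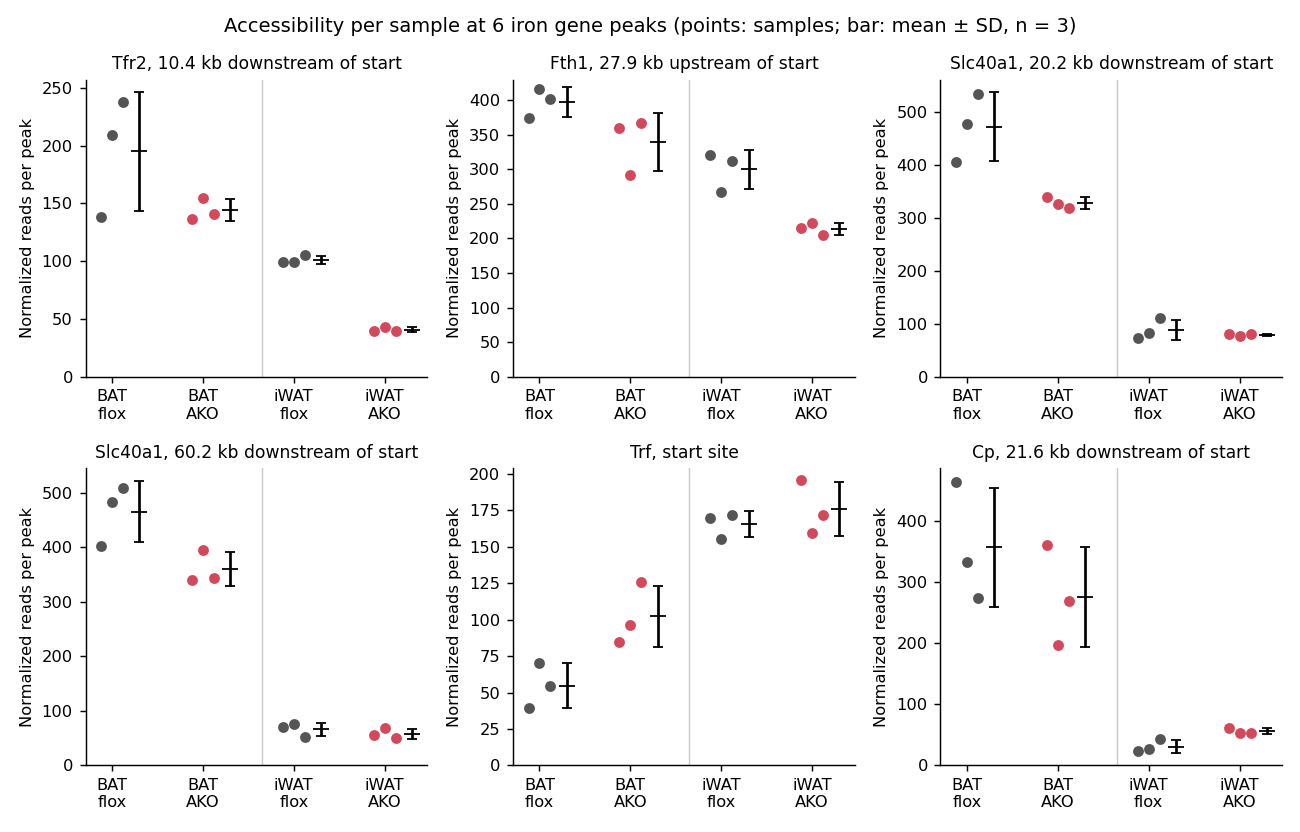
Normalized reads per peak (y axis, from 0) in each BAT and iWAT sample at 6 iron gene peaks, gray for flox and red for AKO, with the mean and SD of 3 samples beside the points; the depots were normalized separately. At Tfr2 the iWAT AKO aliquots (39.2 to 43.4) lie far below the flox aliquots (99.0 to 105), while at Slc40a1 the genotypes separate in BAT and overlap in iWAT.

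Fth1, the ferritin heavy chain that oxidizes iron for storage, had 6 BAT and 5 iWAT peaks. At the peak 27.9 kb upstream, whose middle lies in no protein-coding gene, the iWAT aliquots held 321, 267 and 312 in flox and 214, 223 and 205 in AKO. All AKO aliquots were lower, with a fitted log2 fold change of -0.48 ± 0.14. In BAT the same peak held 374, 417 and 401 in flox and 360, 292 and 367 in AKO samples. These did not overlap either, although AKO replicate 3 and flox replicate 1 were close, and the fitted value was -0.13 ± 0.20. Of the 25 iron gene peaks listed in both depots this was 1 where AKO lay below flox without overlap in each, against 1.05% of all 31936 pairs of overlapping BAT and iWAT peaks, and nothing is read from it since the genes were chosen on this contrast. Sums over marker peaks of other cell types were also lower in iWAT AKO without overlap. Of 6 lymphocyte markers 2 had peaks (none at Cd3e, Cd79a, Cd8a or Ms4a1), with sums of 190.3 to 196 in flox and 137 to 171 in AKO. That sum rested on 3 peaks, of which 2 were lower and 1 higher without overlap. Of 7 endothelial markers 5 had peaks (none at Emcn or Tie1), with sums of 959.7 to 1030 in flox and 900.2 to 953 in AKO. Of the 15 endothelial peaks 2 were lower and 1 higher without overlap. The erythroid sum given above separated in the same direction, with 2 of its 6 peaks lower and 0 higher. Of all iWAT peaks, 10.3% were lower and 10.6% higher without overlap, so nothing is read from these marker peak counts. The part of these cell types in the iWAT values of Fth1, Ftl1 and Tfr2 was not tested.

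The start-site peak of Fth1 held 801, 661 and 624 in BAT flox and 640, 494 and 585 in AKO, where AKO replicate 1 exceeded flox replicate 3, and 274, 275 and 289 in iWAT flox and 262, 254 and 276 in AKO, which also overlapped. Its fitted values were -0.02 ± 0.17 and -0.08 ± 0.12. The BAT peak with the smallest p, 35.4 kb upstream, held 214, 157 and 186 in flox and 313, 96.6 and 174 in AKO, so that AKO replicates 1 and 2 bracketed all flox samples (0.55 ± 0.38). The near upstream peak with the 2 antioxidant response elements held 352, 364 and 360 in BAT flox and 309, 282 and 378 in AKO (-0.07 ± 0.20), and its iWAT value was 0.07 ± 0.16. Summed over the 5 iWAT peaks, Fth1 held 741, 699 and 770 in flox and 661, 644 and 627 in AKO aliquots, without overlap.

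Ftl1, the ferritin light chain, had 2 peaks in each depot. The start-site peak held 928, 807 and 686 in BAT flox and 807, 568 and 848 in AKO, with overlap and a fitted value of 0.24 ± 0.18, opposite in sign to the log2 ratio of the means, -0.12. In iWAT it held 490, 403 and 435 in flox and 388, 369 and 372 in AKO, where all AKO aliquots were lower (-0.23 ± 0.13). The peak 2.45 kb from the start, past the 3′ end of the gene, overlapped in both depots. It held 233, 194 and 228 in BAT flox and 243, 234 and 226 in AKO (0.12 ± 0.19), and 158, 105 and 173 in iWAT flox and 119, 93.6 and 123 in AKO (-0.35 ± 0.22). Ferritin chains have processed pseudogene copies in the mouse genome, and only reads of mapping quality 30 or more were counted, so these peaks rest on reads that could be placed.

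Slc40a1, the only known cellular iron exporter, had 4 BAT and 3 iWAT peaks, and the 2 BAT peaks beyond its 3′ end were lower in AKO. These 2 are given to Slc40a1 by the authors' assignment, although the start of a gene model, Gm5269, lies nearer to the middle of each, at 15350 and 24726 bases. The peak 20.2 kb from the start held 406, 478 and 536 in BAT flox and 340, 326 and 319 in AKO samples. The peak 60.2 kb from the start held 403, 484 and 510 in flox and 340, 396 and 344 in AKO. No AKO sample reached the lowest flox sample at either, and the fitted values were -0.64 ± 0.19 and -0.57 ± 0.17. The start-site peak, over exons 1 and 2, held 427, 385 and 415 in flox and 403, 479 and 441 in AKO (0.04 ± 0.19), and the peak 4.49 kb upstream 122, 107 and 142 in flox and 128, 112 and 92.1 in AKO (-0.24 ± 0.24). Both overlapped. In iWAT the 20.1 kb peak held 72.7, 82.3 and 110 in flox and 80.7, 77.6 and 80.2 in AKO, and the 60.5 kb peak 69.9, 75.6 and 52.5 in flox and 55.3, 68.5 and 50.3 in AKO. The genotypes overlapped at both (-0.13 ± 0.18 and -0.18 ± 0.19). At the iWAT start site the aliquots held 105, 128 and 89.5 in flox and 127, 138 and 131 in AKO, with AKO replicate 1 just under flox replicate 2 (0.31 ± 0.16). Markers of macrophages, which recycle iron through Slc40a1, overlapped between genotypes in BAT, where 4 of 8 had peaks (none at Cd68, Csf1r, Itgam or Lyz2) and summed to 222 to 383 in flox and 266 to 365 in AKO. Several other sums were lower in every BAT AKO sample than in any flox sample, as the 2 distal Slc40a1 peaks were. They were the adipocyte and the brown or beige sums given above, the sum over skeletal muscle markers (4 of 5 with peaks, none at Ckm; 1587 to 1776 in flox and 1327 to 1568 in AKO) and that over fibroblast markers (5 of 6 with peaks, none at Ly6a; 3172 to 3321 and 3000 to 3143). Single peaks of these lists did not all go the same way. Without overlap, 8 of the 30 adipocyte peaks were lower and 3 higher. Of the 18 fibroblast peaks 1 was lower and 2 were higher, with a median fitted value of 0.061. Of the 72 brown or beige peaks 28 were lower and 0 higher, and of the 8 skeletal muscle peaks 3 and 0. Of all BAT peaks, 8.84% were lower and 8.77% higher without overlap. The erythroid sum went the other way, at 500 to 569 in flox and 596 to 742 in AKO, with 3 of its 6 peaks higher and 0 lower. The lymphocyte, endothelial, hepatocyte and Schwann cell sums overlapped between genotypes. The part of these cell types in the Slc40a1 values was not tested.

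Cp, the ferroxidase that helps load exported iron onto transferrin, had 3 BAT and 2 iWAT peaks and no peak at its start site. The peak 2.98 kb upstream held 376, 354 and 364 in BAT flox and 335, 195 and 298 in AKO samples. All AKO samples were lower, yet the fitted value was only -0.12 ± 0.23, against a log2 ratio of the means of -0.40, once the first principal component was in the model. In iWAT the peak overlapped between genotypes, at 103, 84.5 and 94.7 in flox and 94.5, 81.1 and 89.8 in AKO (-0.09 ± 0.14). The peak 21.6 kb into the gene, in intron 10 and at exon 11, held 22.8, 26.7 and 43.0 in iWAT flox and 61.1, 53.7 and 53.5 in AKO aliquots. All AKO aliquots were higher, with a fitted value of 0.89 ± 0.23, on 24 to 53 reads per aliquot. In BAT the same peak held 463, 332 and 274 in flox and 361, 197 and 269 in AKO, with overlap, and the fitted value of 0.17 ± 0.20 was opposite in sign to the log2 ratio of the means, -0.37. The third BAT peak, in intron 14, held 154, 101 and 131 in flox and 146, 104 and 81.6 in AKO (-0.09 ± 0.33). Replicate 1 was the highest of its genotype at all 3 BAT peaks of Cp.

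Summed over all peaks of a gene, 1 of the 9 genes was lower in every BAT AKO sample than in any flox sample (Slc40a1, at 1359, 1454 and 1603 in flox and 1211, 1313 and 1196 in AKO) and 1 higher (Trf). Of all genes with a BAT peak, 8.43% and 8.97% were. In iWAT 2 were lower (Tfr2, at 173, 179 and 169 in flox and 96.8, 137 and 106 in AKO, and Fth1) and 1 higher (Slc11a2), against 10.8% and 10.6% of all genes. Among the 8 BAT peaks that covered a start site, the fitted values ran from -1.09 at Tfr2 to 0.77 at Trf with a median of 0.118, and among the 8 in iWAT from -0.23 at Ftl1 to 0.31 at Slc40a1 with a median of 0.094. The 30 other BAT peaks had a median of -0.105 and the 20 other iWAT peaks one of -0.006.

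The flox samples show how open these loci were with BAF60a intact. The 2 tables were normalized separately and list different numbers of peaks, so levels are given as percentiles of reads per kb within each table and were not tested across depots. The iWAT flox samples are also aliquots of a pool of cold-acclimated mice, with shallower libraries. The study's ATAC-seq methods name no cold exposure and no age for the BAT mice, and describe separate sequencing of the depots. Depot therefore cannot be told apart from cold, pooling, depth, sequencing or age. The start-site peaks of Tfrc, Fth1, Ftl1 and Slc11a2 stood high in both depots, between percentiles 89.5 and 96.4 in BAT and between 78.5 and 91.8 in iWAT. These are genes that nearly all cells use. Of the 25 peaks listed in both depots, 20 had the higher percentile in BAT, as did 59.9% of all 31936 pairs of overlapping peaks, so a higher percentile in BAT is not particular to any gene named here. The Slc40a1 peak 20.2 kb from the start was at percentile 93.1 in BAT and 37.8 in iWAT, and the 60.2 kb peak at 56.6 and 2.9, while the Slc40a1 start-site peak was at 49.0 and 37.1. The Steap4 peak 7.98 kb into the gene was at percentiles 94.5 and 56.1. The Cp peak at 21.6 kb stood at percentile 91.6 in BAT and 22.5 in iWAT. The Trf start-site peak, given above, had its higher percentile in iWAT.

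**Figure D4:**
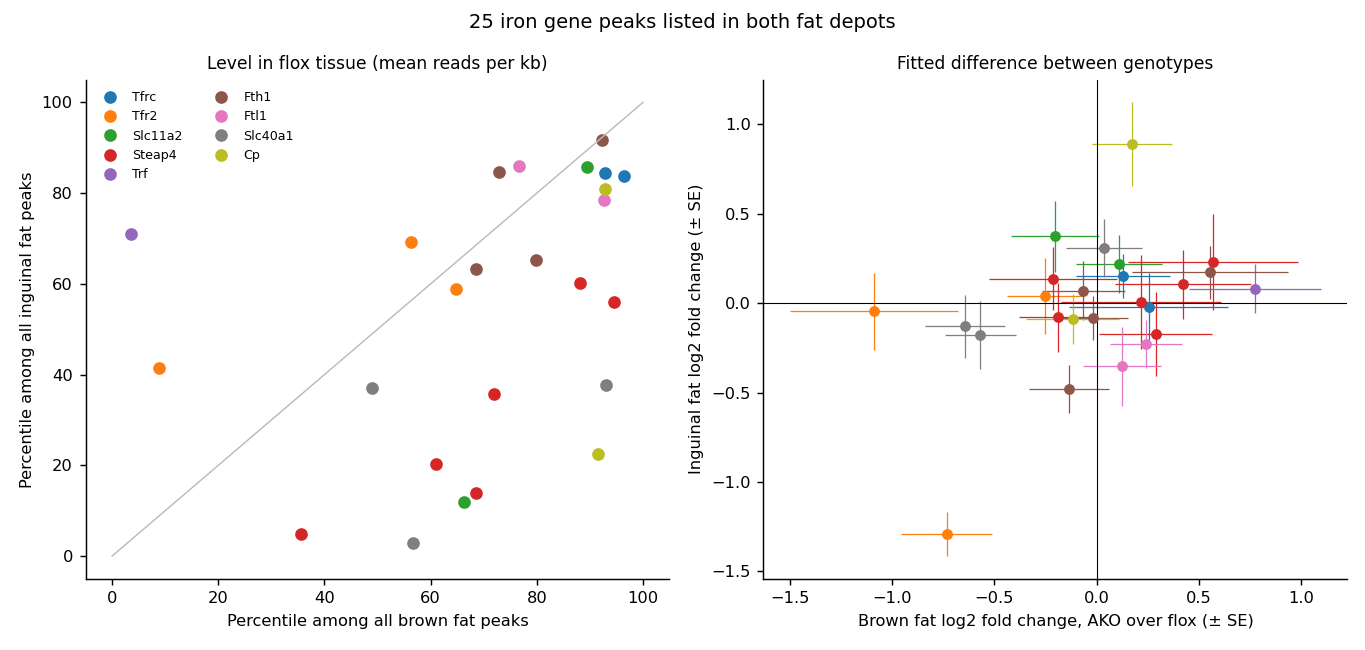
Left, percentile of flox reads per kb in iWAT (y axis) against BAT (x axis) for the 25 iron gene peaks listed in both depots, colored by gene, with the line of equal percentiles. Right, fitted log2 fold change of AKO over flox in iWAT against BAT (± SE); the Tfr2 exon 12 peak is lowest at -1.29 in iWAT and -0.73 in BAT, and the Cp peak is highest in iWAT at 0.89.

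Of the 38 BAT peaks, 25 shared at least 1 base with an iron gene peak of iWAT, each with exactly 1. The 13 BAT peaks without a counterpart included 4 of the 10 at Steap4 and 3 of the 5 at Tfrc, and the 3 iWAT peaks without one were at Slc11a2, Fth1 and Trf. At 8 of the 25 pairs the fitted values were below 0 in both depots, at 9 above 0 in both and at 8 of opposite sign. No pair separated the genotypes one way in BAT and the other way in iWAT.

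The wider iron pathway was described from a list of 60 further genes of iron sensing, mitochondrial iron use, heme synthesis and heme breakdown. Of these, 48 had a peak in BAT and 48 in iWAT, not all the same genes, with 135 BAT and 106 iWAT peaks. X-linked genes such as Alas2 and Heph had none, as the tables hold autosomes only. limma called none of these peaks in either depot at an adjusted p of 0.1, where it called 0.0% of all peaks. DESeq2 called none of them either, against 0.217% of all BAT peaks lower and 0.0803% higher. In iWAT its shares of all peaks were 0.569% and 0.493%. At an unadjusted p under 0.05 limma put 5 BAT peaks lower and 6 higher and 2 iWAT peaks lower and 8 higher, where all peaks of the table were at 5.59% and 3.46% in BAT and 7.42% and 7.61% in iWAT. edgeR, run at the same threshold of 0.1, put 3 of the 106 iWAT peaks higher, at Alas1, Isca2 and Lrp1, and 0 lower. Of all iWAT peaks it put 2.15% higher and 2.52% lower, so nothing is read from this count. The median fitted value was 0.061 in BAT and -0.025 in iWAT, beside 0.007 and -0.001 over all peaks. The peaks with the smallest p are given as values only. Among BAT values below 0, the 3 with the smallest p included a peak in intron 1 of Hmox2, a heme oxygenase (-1.59 ± 0.20). Another lay upstream of Snx3, which sorts the transferrin receptor (-1.03 ± 0.31). The last was assigned to Isca2, an iron-sulfur cluster assembly factor (-0.55 ± 0.18). That Isca2 peak lay 32270 bases from the start site, at percentile 99.9 of BAT peaks by flox reads per kb, and held 1074, 845 and 858 in flox and 586, 473 and 560 in AKO samples. The Hmox2 peak was small, with 5 reads in each AKO sample. Higher in BAT were a 13-base peak assigned to the scaffold protein gene Iscu (1.40 ± 0.37, resting on flox counts of 10, 7 and 2 reads against AKO counts of 9, 8 and 13), intron 6 of Lrp1, a receptor for heme-hemopexin among other ligands (0.57 ± 0.18), and a second peak assigned to Isca2 (0.59 ± 0.20).

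Among iWAT values below 0, the 3 with the smallest p included a peak upstream of Hp, the hemoglobin scavenger haptoglobin (-0.64 ± 0.22). The others were a peak assigned to the ferrireductase gene Steap3 (-0.65 ± 0.26) and one upstream of Hfe2, the older symbol of hemojuvelin (-0.34 ± 0.16). Higher were intron 1 of the iron importer gene Slc39a14 (0.70 ± 0.20), intron 2 of Lrp1 (0.60 ± 0.18), and a peak over exon 3 of Alas1. Alas1 encodes the rate-limiting enzyme of heme synthesis outside red cells. Its peak held 121, 116 and 114 in flox and 187, 180 and 140 in AKO aliquots, all AKO aliquots higher, with a fitted value of 0.52 ± 0.15.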

How the data were processed

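ATAC-seq was measured in 3 flox and 3 AKO samples of BAT and of iWAT. Per the study's methods and the submitters' processing notes, reads were mapped to mm10 with BWA 0.7.17-r1188, duplicates were removed with Picard 2.8.14, autosomal read pairs of mapping quality 30 or more were kept, broad peaks were called per sample with MACS2 2.1.1.20160309, peaks that recurred within a genotype were merged, reads were counted with bedtools 2.27.1 and peaks were assigned to genes by HOMER. The deposited values are signal, that is read counts the authors divided by 1 size factor per sample (DESeq2 1.20.0). The tables also hold the authors' fold changes and p-values, which were not used. No column of per-sample values was left out (0 unused). The brown fat table was recognized by the PC1 in its name and the study's methods.

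Whole reads were recovered for every value (tolerance 0.0001 reads), and the range of reads in peaks is given in the results. Peak starts were raised by 1 to count bases from 1. AKO was compared with flox over all peaks of each table with limma 3.58.1 (R 4.3.3) on log2(normalized reads + 1), with the first principal component as a covariate in BAT, as in the study, and Benjamini-Hochberg adjustment, threshold 0.1. Fold changes on this scale understate changes at small peaks. DESeq2 1.42.0 and edgeR 4.0.16 on the recovered reads, other scalings, pseudocounts and filters were alternatives. Distances and features came from GENCODE vM21, sequences from GRCm38 and RefSeq. Adjusted p-values over 3 iWAT aliquots measure technical spread. The limma fit and the motif search were tested on simulated data. The iron genes, the wider list, the marker lists and the motifs were chosen with earlier results of these data known. Named were, per gene and depot, the peak nearest the start site and the peak with the smallest unadjusted p, all peaks where a gene had at most 3, all Tfr2 peaks, and of the other iron genes the 3 with the smallest p in each direction and depot. Peaks named beyond these (Steap4 at 7.98 kb, the Slc40a1 peaks at 60.2 kb and upstream, the Tfrc peak 53.2 kb upstream in BAT and the Fth1 peaks 4 kb and, in BAT, 27.9 kb upstream) were chosen after their values were seen.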

Additional observations from a re-analysis of the deposited data

How the results depend on the processing

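limma called 0 peaks of the 9 iron genes, and 0 of the wider iron list, in BAT and in iWAT under every scaling, filter, pseudocount, covariate and left-out replicate tried and at a threshold of 0.05. The main limma fit called none of all peaks in either depot, so its count of 0 says nothing particular to the iron genes. Shares of all peaks under the other limma settings are not given here. In iWAT DESeq2 called 2 peaks of the 9 genes, and edgeR, added after the data were seen, called 3. Of all iWAT peaks DESeq2 called 0.569% lower and 0.493% higher, and edgeR 2.52% and 2.15%. In BAT both called 0 peaks of the 9 genes. Of all BAT peaks DESeq2 called 0.217% lower and 0.0803% higher, and edgeR 0.114% and 0.029%. Nothing is read from these counts, since the genes were chosen on this contrast. Replicate numbers were not used to pair the samples in the main fit. Correlations of deviations between same-numbered flox and AKO samples were 0.494, 0.063 and -0.236 in BAT and -0.039, -0.05 and -0.057 in iWAT. In BAT flox replicate 3 and AKO replicate 2 reached 0.481. Deviations were taken from the mean of each genotype, which ties these correlations to each other, so they cannot decide whether the numbers mark pairs. With the replicate number as a block the count of calls stayed 0 in both depots, and the median over BAT iron gene peaks was -0.161 against 0.009 without the block. Leaving out 1 replicate at a time, the median ranged from -0.17 (without AKO replicate 1) to 0.079 in BAT and from -0.04 (without flox replicate 2) to 0.068 (without AKO replicate 3) in iWAT. Principal component 1 separates the genotypes in iWAT, so adding it there removes the contrast, and the median became -0.041. In BAT, where the component is partly shared with genotype, the median without it was -0.084. Among single peaks, the exon 12 peak of Tfr2 in iWAT ranged from -1.67 to -1.13 over all alternatives. The Slc40a1 peak at 20.2 kb in BAT ranged from -0.77 to -0.49. The iWAT range includes the principal component fit and rests on aliquots of 1 pool, so it shows technical spread only. The Cp peak at 21.6 kb in iWAT ranged from 0.71 to 1.15 with a replicate left out and was -2.04 with principal component 1. In BAT 13 of 19 named peaks, and in iWAT 13 of 21, had a fitted value of the other sign under at least 1 alternative, and leaving aside the principal component fit in iWAT the number there was 6. The cause was not tested. Depth limits what small peaks show: the Steap4 peaks near its last exon, the Tfr2 peaks at the start site in BAT and at exon 12 in iWAT and the iWAT Cp peak each had samples with under 40 reads.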
